A study of Mus musculus with 12 samples.

Results

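The signalling chains of the B cell receptor and a set of further genes of the B lineage were followed through RNA-seq libraries of splenic type 2 conventional dendritic cells (cDC2), which take up antigen and present it to CD4 T cells. The set was defined by gene name and holds Cd79a, Cd79b, Ms4a1, Fcer2a, Blk, Fcrla, Cd22 and Pax5, which are 8 of the 55322 genes in the deposited table. Immunoglobulin gene segments were left out. The genes were chosen for their known place in B cells, with earlier results of these data known. Of the 8 genes, 7 reached 1 FPKM (read abundance scaled by gene length and by the size of the library) in at least 3 of the 12 libraries and were tested, together with 14538 genes in all. Pax5 reached 1 FPKM in 0 libraries and is described without a test.

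The libraries formed 4 groups of 3, all from mice that had received 5 mg/kg of lipopolysaccharide (LPS) intraperitoneally, with cells taken on day 4. L-cDC2 were the tdTomato+ cells and M-cDC2 the tdTomato- cells of Il7r-Cre;Rosa26-lsl-tdTomato mice, in which Cre driven by the interleukin-7 receptor gene marks a cell and all its progeny. CLP-cDC2 descended from wild-type common lymphoid progenitors (CLPs) and CDP-cDC2 from wild-type common dendritic cell progenitors (CDPs), both CD45.2+ and injected into the marrow of CD45.1+ B6.SJL hosts. The labels give wild-type C57BL/6J mice of 7 to 8 weeks and name no untreated group, so the effect of LPS itself was not measured here. The study asked how closely the offspring of CLPs resemble L-cDC2. As a model, the Il7r reporter also marks B cells, T cells and innate lymphoid cells, and CLPs give rise to these cells as well as to dendritic cells. The hosts kept their own CD45.1+ cells.

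The B cell receptor is a membrane immunoglobulin held at the surface by a pair of signalling chains, Cd79a and Cd79b, whose cytoplasmic tails are phosphorylated by Src-family kinases such as Blk. Cd22 is a sialic-acid-binding lectin that dampens this signal, and Ms4a1 (CD20) and Fcer2a (CD23, the low-affinity IgE receptor) are surface proteins of mature B cells. Fcrla is an intracellular relative of the Fc receptors, and Pax5 is the transcription factor that commits progenitors to the B lineage and is known to activate Cd79a. Several of these genes are also transcribed at some level outside the B lineage, so the set was examined gene by gene.

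Libraries are written below by group and replicate number, as L1 to L3, M1 to M3, CLP1 to CLP3 and CDP1 to CDP3. The smallest library was L2 with 26543345 assigned reads and the largest L3 with 73732243, as recovered from the steps of the deposited values. All 12 genes listed as marks of cDC2 identity were at 1 FPKM or more in each L-cDC2, M-cDC2 and CDP-cDC2 library, and 10 or 11 of the 12 in CLP-cDC2 libraries. CLP2 stood apart from the other CLP-cDC2 libraries in B-lineage transcripts: the immunoglobulin light chain gene Igkc had 429 FPKM there, against 20.1 and 28.5 FPKM in CLP1 and CLP3. CDP3 and M3 were also left out together as an alternative. Nothing in the labels says whether libraries of a group came from separate mice, so p-values reflect only the variation among these libraries, and that variation may be technical. A gene is called where its limma p, adjusted by Benjamini-Hochberg over all tested genes, is under 0.05.

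Promoter sequences are shown for 3 of the genes because they stand for the 3 patterns described below: Cd79a, high in L-cDC2 and low in the other groups, Cd22, high in every group, and Fcrla, low and graded between groups. Of the 8 genes, 5 were matched to a RefSeq promoter (GRCm38.p6, 250 bases before to 50 bases after the annotated start). The windows are chr7:24897247-24897546 on the plus strand for Cd79a, chr7:30878979-30879278 on the minus strand for Cd22 and chr1:170927534-170927833 on the minus strand for Fcrla, each printed 5′ to 3′ on the strand of the gene. Capitals mark GAGGAA, the core of PU.1 sites, on either strand, and CCCNNGGG, the core of EBF1 sites, in Cd22.
Cd79a: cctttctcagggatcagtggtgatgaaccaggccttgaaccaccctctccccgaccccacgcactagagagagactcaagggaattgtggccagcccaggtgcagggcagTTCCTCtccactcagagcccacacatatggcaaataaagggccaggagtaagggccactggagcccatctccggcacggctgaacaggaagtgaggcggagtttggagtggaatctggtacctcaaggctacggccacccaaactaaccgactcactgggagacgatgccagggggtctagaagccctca
Cd22: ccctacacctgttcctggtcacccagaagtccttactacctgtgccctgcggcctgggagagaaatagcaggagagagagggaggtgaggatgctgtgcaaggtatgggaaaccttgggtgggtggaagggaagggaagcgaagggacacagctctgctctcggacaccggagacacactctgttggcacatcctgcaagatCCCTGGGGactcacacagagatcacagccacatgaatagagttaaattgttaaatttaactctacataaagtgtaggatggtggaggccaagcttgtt
Fcrla: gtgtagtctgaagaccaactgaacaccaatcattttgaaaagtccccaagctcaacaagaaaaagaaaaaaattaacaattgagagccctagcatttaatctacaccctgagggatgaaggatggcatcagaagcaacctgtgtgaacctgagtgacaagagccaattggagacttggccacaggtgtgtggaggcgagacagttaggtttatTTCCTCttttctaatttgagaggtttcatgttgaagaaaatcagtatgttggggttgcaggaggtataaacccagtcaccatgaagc
These windows were searched on both strands for ATGCAAAT (the octamer bound by Oct factors), CCCNNGGG (the EBF1 core), CAGCTG (an E-box), GAGGAA and TATAAA. Cd79a held GAGGAA on the minus strand at positions -140 to -135 from the start, and Fcrla held it at -37 to -32 and TATAAA, left in lower case, at 28 to 33. The windows of Fcer2a, which are not shown, held TATAAA at -33 to -28 in one and CAGCTG at -30 to -25 in another. Cd22 held CCCNNGGG at -48 to -41. Of 32851 promoter windows of the same length, 28.28% held GAGGAA and 13.67% held CCCNNGGG, while 1.74% held the octamer, 16.3% CAGCTG and 13.62% TATAAA. The Pax5 window held none of these motifs. These are matches of letters within a short window and were not related to binding of any factor.

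Cd79a (ENSMUSG00000003379, chromosome 7, 24596806 to 24601622 as deposited, build not stated) separated L-cDC2 from every other group. It had 57.8, 51.8 and 50.9 FPKM in L-cDC2, against 0.594, 0.139 and 0.297 FPKM in M-cDC2. In the transfer groups it had 0.172, 3.51 and 0.606 FPKM in CLP-cDC2 and 0.329, 1.24 and 1.001 FPKM in CDP-cDC2. All L-cDC2 libraries lay above all 9 others, and the 3 low groups overlapped each other. The level in L-cDC2 averaged 53.5 ± 3.72 FPKM against 0.343 ± 0.231 FPKM in M-cDC2 (SD, n = 3 each), a 156-fold ratio of means. The low values rested on few reads, from 8.5 in CLP1 to 233 in CLP2, and from 10 to 39 in M-cDC2. On the log2(FPKM + 1) scale, which understates the change of low genes, L-cDC2 exceeded M-cDC2 by 5.35 ± 0.38 (SE; limma adjusted p = 5.03e-06), whereas CLP-cDC2 and CDP-cDC2 differed by 0.17 ± 0.38 (adjusted p = 0.801, 95% interval -0.66 to 1.004). Without CLP2 that difference was -0.40, so its sign depends on that library. In bulk libraries, fewer cells carrying a transcript and less transcript per cell cannot be told apart.

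Cd79b (ENSMUSG00000040592, chromosome 11, 106202167 to 106205588 as deposited), the partner chain of Cd79a, was abundant in every library. It had 53.6, 61.3 and 58.2 FPKM in L-cDC2, against 32.7, 38.3 and 46.2 FPKM in M-cDC2. It had 57.3, 58.8 and 57.0 FPKM in CLP-cDC2, against 44.3, 45.5 and 27.95 FPKM in CDP-cDC2. L-cDC2 and CLP-cDC2 overlapped near the top, and M-cDC2 and CDP-cDC2 overlapped below them with no library in common between the pairs. Even in M-cDC2, 93.13% of 21821 protein-coding genes had a lower mean FPKM. CLP-cDC2 exceeded CDP-cDC2 by 0.58 ± 0.18 on the log2 scale (limma adjusted p = 0.0477), and L-cDC2 minus M-cDC2 was 0.56 ± 0.18, which missed the threshold (adjusted p = 0.226). The first call was lost in 16 of 23 alternatives, including removal of L1, L2, L3, M2, CLP1, CLP2, CLP3 or CDP3 (adjusted p from 0.0577 to 0.130, and a difference of 0.36 without CDP3), and the second was gained without CDP3 (adjusted p = 0.0319). CLP-cDC2 and L-cDC2 differed by 0.00 (95% interval -0.38 to 0.38, adjusted p = 0.998).

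The ratio of Cd79a to Cd79b set L-cDC2 apart from the other groups. Per length, Cd79a reached 84.6 to 108% of the Cd79b level in L-cDC2 libraries, against 0.364 to 1.81% in M-cDC2. It reached 0.300 to 5.96% in CLP-cDC2, against 0.741 to 3.58% in CDP-cDC2. The highest value outside L-cDC2 was that of CLP2. The difference of the lineage differences, L-cDC2 minus M-cDC2 set against CLP-cDC2 minus CDP-cDC2, was 5.18 ± 0.54 for Cd79a (log2 scale, limma adjusted p = 0.000315), and it was called under every alternative that could be fitted. For Cd79b it was -0.01 (adjusted p = 0.982, 95% interval -0.55 to 0.52).

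**Figure D1:**
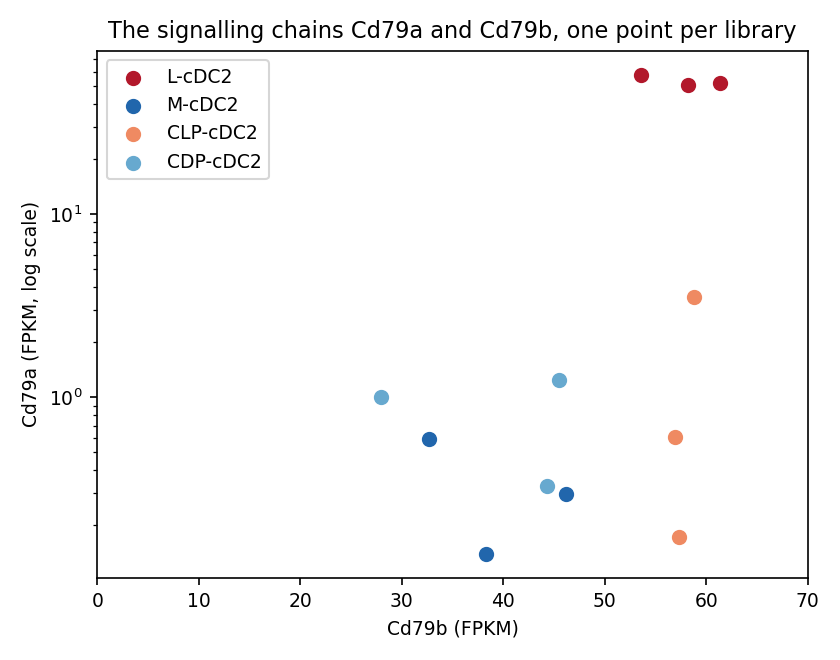
Cd79a (vertical axis, FPKM on a log scale) against Cd79b (horizontal axis, FPKM on a linear scale), 1 point per library, coloured by group. The 3 L-cDC2 points lie at 50.9 to 57.8 FPKM of Cd79a, while the other 9 lie at or under 3.51 FPKM over a Cd79b range of 27.95 to 58.8 FPKM.

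Cd22 (ENSMUSG00000030577, chromosome 7, 30564827 to 30579767 as deposited) was the other abundant member. It had 41.0, 57.8 and 42.5 FPKM in L-cDC2, against 35.0, 29.0 and 25.0 FPKM in M-cDC2. It had 39.98, 27.1 and 26.6 FPKM in CLP-cDC2, against 31.9, 41.6 and 40.7 FPKM in CDP-cDC2. L-cDC2 lay above M-cDC2 in every library, while CLP-cDC2 and CDP-cDC2 overlapped. The L-cDC2 minus M-cDC2 difference was 0.65 ± 0.19 (log2 scale, limma adjusted p = 0.197), and CLP-cDC2 minus CDP-cDC2 was -0.29 ± 0.19 (adjusted p = 0.347). The difference between them, 0.94 ± 0.27, missed the threshold (adjusted p = 0.0607) and passed it without CLP1 (1.13, adjusted p = 0.0375) or without CDP1 (1.06, adjusted p = 0.0403). Cd22 shares 479 exon bases with Gm29439, a long non-coding RNA gene on the opposite strand, and no source used here says whether counting used strand. Gm29439 had 35.6, 48.6 and 36.1 FPKM in L-cDC2 and 30.6, 24.8 and 18.7 FPKM in M-cDC2, so reads of that stretch cannot be assigned to one gene. Cd79b and Cd22 together made 51.0 to 60.1% of the summed FPKM of the 8 genes in L-cDC2, against 85.1 to 86.8% in M-cDC2. They made 82.9 to 88.1% in CLP-cDC2, against 90.7 to 95.6% in CDP-cDC2.

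Blk (ENSMUSG00000014453, chromosome 14, 63610285 to 63654486 as deposited), the Src-family kinase, gave 4 separate group levels. It had 15.7, 11.9 and 11.5 FPKM in L-cDC2, against 3.59, 3.54 and 3.77 FPKM in M-cDC2. It had 5.17, 4.88 and 4.22 FPKM in CLP-cDC2, against 1.05, 1.96 and 2.93 FPKM in CDP-cDC2. In the order L-cDC2, CLP-cDC2, M-cDC2, CDP-cDC2 no neighbouring groups overlapped. Blk rose by 1.59 ± 0.21 in L-cDC2 over M-cDC2 (log2 scale, limma adjusted p = 0.00084) and by 0.996 ± 0.21 in CLP-cDC2 over CDP-cDC2 (adjusted p = 0.00922), and the difference between these was 0.59 ± 0.30 (adjusted p = 0.237). The call in CLP-cDC2 was lost in the fit of those groups alone (adjusted p = 0.0625).

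Fcer2a (ENSMUSG00000005540, chromosome 8, 3731737 to 3744175 as deposited) was lowest in CDP-cDC2. It had 6.86, 5.94 and 6.53 FPKM in L-cDC2, against 1.63, 2.12 and 2.25 FPKM in M-cDC2. It had 2.04, 3.20 and 2.31 FPKM in CLP-cDC2, against 0.142, 0.530 and 0.111 FPKM in CDP-cDC2, where 16, 92 and 14 reads stood behind the values. CLP-cDC2 and M-cDC2 overlapped, L-cDC2 lay above both and CDP-cDC2 below both. Fcer2a rose by 1.31 ± 0.18 in L-cDC2 over M-cDC2 (log2 scale, limma adjusted p = 0.00108) and by 1.48 ± 0.18 in CLP-cDC2 over CDP-cDC2 (adjusted p = 0.000453). Both calls were kept under every alternative. The difference between these differences was -0.17 (adjusted p = 0.733, 95% interval -0.72 to 0.38). Over the alternatives it ranged from -1.37 to 0.20 and was not called (lowest limma adjusted p = 0.127), while CLP-cDC2 minus CDP-cDC2 ranged from 0.51 to 3.02. Fcer2a was under 1 FPKM in CDP-cDC2, where the log2(FPKM + 1) scale understates change. Equal size of the 2 differences therefore cannot be read from these values.

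Ms4a1 (ENSMUSG00000024673, chromosome 19, 11227039 to 11243605 as deposited) was low, with the same order of group means. It had 6.40, 5.18 and 4.73 FPKM in L-cDC2, against 3.08, 2.33 and 2.09 FPKM in M-cDC2. It had 2.44, 3.72 and 3.38 FPKM in CLP-cDC2, against 1.23, 2.21 and 1.72 FPKM in CDP-cDC2. L-cDC2 lay above all other libraries, CLP-cDC2 above CDP-cDC2, and M-cDC2 overlapped both transfer groups. Ms4a1 rose by 0.88 ± 0.19 in L-cDC2 over M-cDC2 (log2 scale, limma adjusted p = 0.0333) and by 0.62 ± 0.19 in CLP-cDC2 over CDP-cDC2 (adjusted p = 0.0495). The first call was lost in 11 of 22 alternatives. These included a pseudocount of 0.1, no filter, quantile normalization and the replicate block (adjusted p from 0.05665 to 0.0927). They also included removal of L1, L2 or L3, M2 or M3, or CLP3 (adjusted p from 0.05005 to 0.270). The second call was lost in 17 of 22 alternatives, including removal of any L-cDC2 or M-cDC2 library, CLP2, CLP3, CDP1 or CDP3 (adjusted p from 0.0506 to 0.175).

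Fcrla (ENSMUSG00000038421, chromosome 1, 170745145 to 170755152 as deposited) had 4.01, 4.19 and 4.91 FPKM in L-cDC2, against 1.79, 3.56 and 2.40 FPKM in M-cDC2. It had 3.26, 2.34 and 2.29 FPKM in CLP-cDC2, against 0.721, 1.53 and 1.08 FPKM in CDP-cDC2. CLP-cDC2 and M-cDC2 overlapped, with L-cDC2 above and CDP-cDC2 below, as for Fcer2a. Fcrla rose by 0.79 ± 0.21 in CLP-cDC2 over CDP-cDC2 (log2 scale, limma adjusted p = 0.0266), and the L-cDC2 minus M-cDC2 difference was 0.61 ± 0.21 (adjusted p = 0.316). The call was lost in 8 of 22 alternatives. These included no filter, the fit of CLP-cDC2 and CDP-cDC2 alone, and array weights (adjusted p from 0.0736 to 0.0892). They also included removal of CLP1 or CLP2 or CDP1 or CDP3 (adjusted p from 0.0582 to 0.0915).

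Pax5 (ENSMUSG00000014030, chromosome 4, 44524757 to 44710487 as deposited) was under 1 FPKM in every library, and close to the floor of detection in some libraries outside L-cDC2. It had 0.321, 0.174 and 0.323 FPKM in L-cDC2, against 0.020, 0.0504 and 0.0400 FPKM in M-cDC2. It had 0.0765, 0.0384 and 0.259 FPKM in CLP-cDC2, against 0, 0.0101 and 0.161 FPKM in CDP-cDC2. L-cDC2 lay above M-cDC2 in every library, with 102, 41 and 211 reads in L-cDC2 against 8, 22 and 18 reads in M-cDC2. CLP-cDC2 and CDP-cDC2 overlapped, and the 0 reads of CDP1 allow up to 3 reads, or 0.00927 FPKM, counting error only. Within the transfer groups the highest Pax5 libraries were CLP3 and CDP3, which were not the highest for Cd79a. Pax5 shares 125 and 636 exon bases with Gm12462 and 5730488B01Rik on the opposite strand, of 8853 exon bases in all, so reads of those stretches cannot be assigned to one gene.

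**Figure D2:**
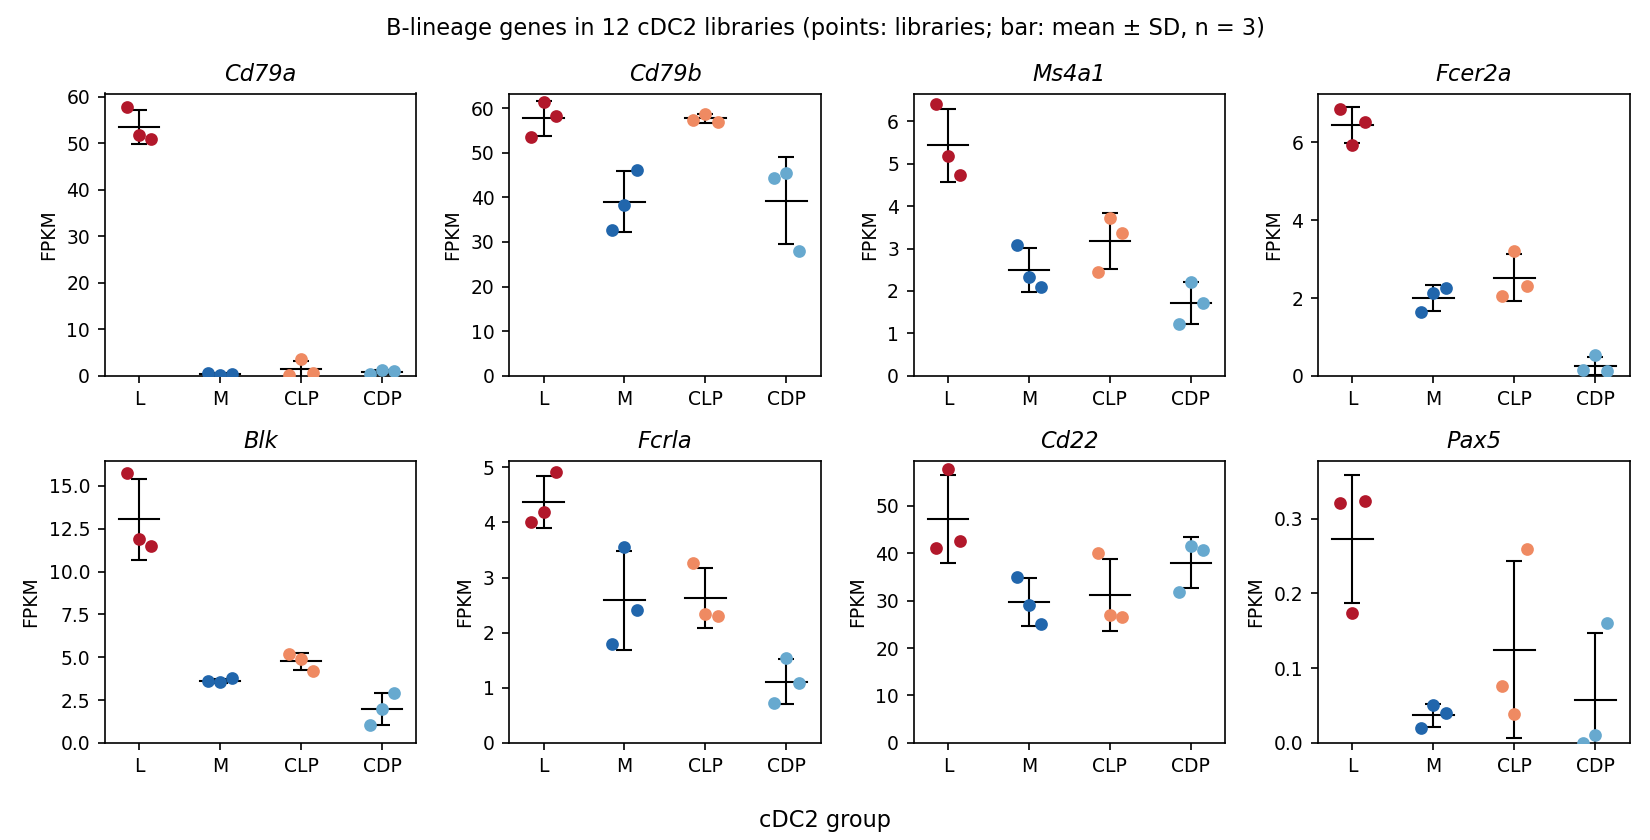
FPKM of each of the 8 genes by group, 1 panel per gene with its own axis from 0, with points for libraries and bars for mean and SD (n = 3). Cd79a is at 50.9 to 57.8 FPKM in L-cDC2 and at most 3.51 FPKM elsewhere, Cd79b and Cd22 are at 25.0 FPKM or more in all 12 libraries, and Blk, Fcer2a, Ms4a1 and Fcrla have their highest libraries in L-cDC2 and their lowest in CDP-cDC2.

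Counted over the set, L-cDC2 exceeded M-cDC2 in 4 of the 7 tested genes (Cd79a, Fcer2a, Blk and Ms4a1) and fell below it in 0, where 1.73% of all 14538 genes were called in either direction and 1.29% as higher, with 0.44% as lower. All 7 had an unadjusted limma p under 0.05. The libraries of L-cDC2 lay wholly above those of M-cDC2 for 8 of the 8 genes, which was so for 12.7% of all tested genes. The median difference of the 7 was 0.88 on the log2 scale, against 0.04 over all genes tested. The set was chosen with earlier results of these data known, so these counts describe it and carry no test of their own.

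CLP-cDC2 exceeded CDP-cDC2 in 5 of the 7 (Fcer2a, Blk, Fcrla, Ms4a1 and Cd79b) and fell below it in 0, where 13.1% of all genes were called and 7.02% as higher, with 6.12% as lower. Libraries did not overlap for these same 5 genes, against 16.7% of all tested genes with CLP-cDC2 wholly above. The median difference was 0.62, against -0.01 over all genes. This count was 2 when CLP2 or CDP3 was left out, and 3 without L1, L2 or L3, M2, CLP1 or CLP3, or CDP1. Fcer2a, Blk and Ms4a1 passed in both lineage contrasts. The test of the difference between the contrasts called 1 of the 7, Cd79a, where 5.99% of all genes were called and 3.61% as higher, with 2.38% as lower. It called Cd22 as well, and so 2 of the 7, when CLP1 or CDP1 was left out.

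**Figure D3:**
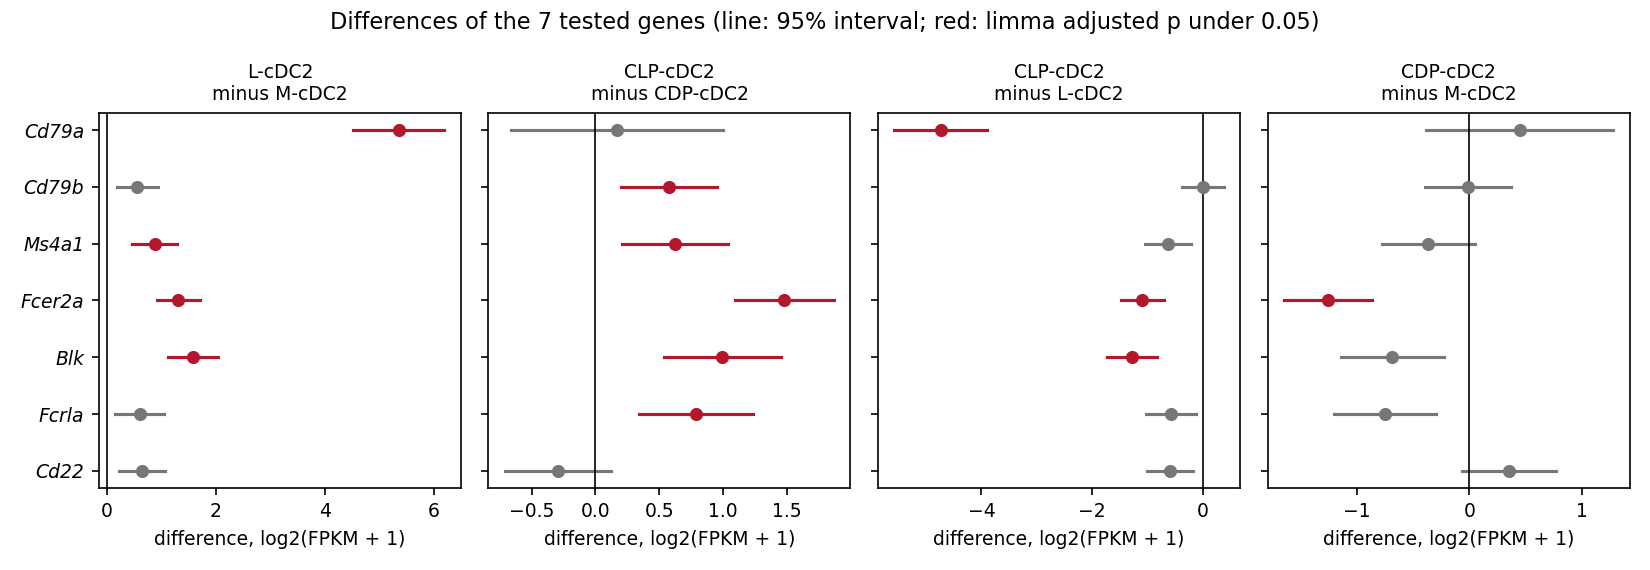
Differences in log2(FPKM + 1) for the 7 tested genes in 4 contrasts, each panel with its own horizontal scale, with points for the estimates, lines for 95% intervals and red for a limma adjusted p under 0.05. Cd79a differs by 5.35 between L-cDC2 and M-cDC2 and by 0.17 between CLP-cDC2 and CDP-cDC2, while Fcer2a differs by 1.31 and 1.48.

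Setting the transferred cells beside the reporter groups gives the size of the gap between the systems. These contrasts share libraries with the lineage contrasts above. CLP-cDC2 fell below L-cDC2 in 3 of the 7 genes, where 10.6% of all genes were called and 6.32% as lower, with 4.29% as higher. Cd79a fell by 4.74 ± 0.38 (log2 scale, limma adjusted p = 9.36e-06), Fcer2a fell by 1.09 ± 0.18 (adjusted p = 0.00229) and Blk fell by 1.28 ± 0.21 (adjusted p = 0.0023). Ms4a1 (-0.63, adjusted p = 0.0541), Cd22 (-0.59, adjusted p = 0.07) and Fcrla (-0.57, adjusted p = 0.0967) missed the threshold, although the libraries of CLP-cDC2 lay wholly below those of L-cDC2 for 6 of the 8 genes, against 17.9% of all tested genes. Ms4a1 passed without CDP1 or CDP3 (adjusted p = 0.0451 and 0.0453), and Cd22 without CLP1 (adjusted p = 0.035).

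CDP-cDC2 fell below M-cDC2 in 1 of the 7, where 2.58% of all genes were called and 0.956% as lower, with 1.62% as higher. That gene was Fcer2a, at -1.26 ± 0.18 (log2 scale, limma adjusted p = 0.00399). Fcrla (-0.75, adjusted p = 0.0744) and Blk (-0.69, adjusted p = 0.101) missed the threshold, and the libraries of CDP-cDC2 lay wholly below those of M-cDC2 for these 3 genes (9.94% of all tested genes). Fcrla passed without CDP2 (adjusted p = 0.0491) and Blk without CDP3 (adjusted p = 0.041), so that the count became 2. Cd79a differed by 0.45 (adjusted p = 0.564), Cd79b by -0.01 (adjusted p = 0.982), Ms4a1 by -0.37 (adjusted p = 0.3) and Cd22 by 0.35 (adjusted p = 0.329).

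Further genes of the B lineage were followed by list. Over all 14538 tested genes, 1.29% were called as higher and 0.44% as lower in L-cDC2 against M-cDC2. In CLP-cDC2 against CDP-cDC2 these shares were 7.02% and 6.12%, and the counts of all lists below stand beside them. Among surface genes of mature B cells, L-cDC2 exceeded M-cDC2 in 1 of 8 tested genes (11 listed) and fell below it in 0, with a median difference of 0.25. That gene was Fcmr, the Fc receptor for IgM, which had 4.56, 10.9 and 12.4 FPKM in L-cDC2, against 0, 0.222 and 0.170 FPKM in M-cDC2. In the transfer groups Fcmr had 0, 2.12 and 0.0136 FPKM in CLP-cDC2, against 0.0315, 0.411 and 0.141 FPKM in CDP-cDC2. It was thus high and low in the same groups as Cd79a, with CLP2 again the highest of its group. L-cDC2 minus M-cDC2 was 3.09 ± 0.41 on the log2 scale, and CLP-cDC2 minus CDP-cDC2 was 0.31. Fcmr reached 1 FPKM only in the L-cDC2 libraries and CLP2 and so was tested only because L-cDC2 was high, which makes its call a description. CLP-cDC2 exceeded CDP-cDC2 in 3 of the 8 and fell below it in 1, with a median of 0.23. Those were Cd24a, a glycosylphosphatidylinositol-anchored surface protein (1.61, adjusted p = 0.00452), Tnfrsf13c, the receptor for the survival factor BAFF (0.83, adjusted p = 0.0166), Ccr6, a chemokine receptor (0.86, adjusted p = 0.0413), and Cd81, a tetraspanin (-2.13, adjusted p = 0.0139). Ccr6 and Tnfrsf13c lost the call without CLP2 (adjusted p = 0.159 and 0.0719) or CDP3 (adjusted p = 0.133 and 0.0552), and Cd81 lost it without CLP1 (adjusted p = 0.0515) or CDP2 (adjusted p = 0.0503). Ccr6 also lost it without L1 or L3, M1 or M2, CLP1 or CDP1 (adjusted p from 0.0503 to 0.0559).

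Among inhibitory receptors and phosphatases, the functional class of Cd22, L-cDC2 exceeded M-cDC2 in 0 of 9 tested genes and fell below it in 1, with a median of 0.10. CLP-cDC2 exceeded CDP-cDC2 in 0 and fell below it in 2, with a median of -0.44. Fcgr2b, the inhibitory Fc receptor for IgG, had 7.44, 5.89 and 6.65 FPKM in L-cDC2, against 13.3, 14.2 and 12.7 FPKM in M-cDC2. It had 6.93, 6.88 and 7.28 FPKM in CLP-cDC2, against 15.9, 21.1 and 11.1 FPKM in CDP-cDC2. Both lymphoid-origin groups lay below both myeloid-origin groups, the opposite direction to Fcer2a and Blk. Fcgr2b fell by 0.91 ± 0.18 (limma adjusted p = 0.0197) and by 1.04 ± 0.18 (adjusted p = 0.00352), and the first call was lost when any 1 of the 6 L-cDC2 and M-cDC2 libraries was left out (adjusted p from 0.0596 to 0.162). Pirb, a paired immunoglobulin-like inhibitory receptor, fell by 0.52 in CLP-cDC2 against CDP-cDC2 (adjusted p = 0.0119), and its call was lost without CLP2 (adjusted p = 0.0578).

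Of 14 genes of signalling below the receptor, L-cDC2 exceeded M-cDC2 in 2 and fell below it in 0, with a median of 0.42. CLP-cDC2 exceeded CDP-cDC2 in 1 and fell below it in 3, with a median of -0.30. Blnk, the adaptor that links Syk to phospholipase C, had 1.88, 2.60 and 2.32 FPKM in L-cDC2, against 0.415, 0.230 and 0.316 FPKM in M-cDC2. It had 1.77, 2.18 and 1.71 FPKM in CLP-cDC2, against 0.297, 0.506 and 0.426 FPKM in CDP-cDC2. Blnk was the only gene of this list called as higher in both contrasts, at 1.30 ± 0.15 and 1.04 ± 0.15 on the log2 scale. It reached 1 FPKM only in L-cDC2 and CLP-cDC2 and was tested only because these groups were high, which makes its calls a description. Bank1, a scaffold for B cell kinases, rose by 0.75 in L-cDC2 over M-cDC2 (adjusted p = 0.0267), a call lost without L1, L2 or L3 or M1 or M3 (adjusted p from 0.0828 to 0.193). The kinases Syk, Fyn and Prkcb fell in CLP-cDC2 against CDP-cDC2 by 0.82, 1.19 and 0.92 (adjusted p = 0.0111, 0.00382 and 0.0347). Prkcb lost its call without M2, without CLP1, CLP2 or CLP3, or without CDP2 or CDP3 (adjusted p from 0.0508 to 0.115).

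Of 12 listed transcription factors of the B lineage 9 were tested. L-cDC2 exceeded M-cDC2 in 2 and fell below it in 0, with a median of 0.25, and CLP-cDC2 exceeded CDP-cDC2 in 1 and fell below it in 1, with a median of -0.47. Pou2af1, the coactivator of Oct factors, had 4.03, 3.24 and 3.001 FPKM in L-cDC2, against 0.0087, 0 and 0.0077 FPKM in M-cDC2. It had 0, 0.980 and 0.0185 FPKM in CLP-cDC2, against 0.333, 0.182 and 0.0481 FPKM in CDP-cDC2. Its pattern was again that of Cd79a, with a difference of 2.13 ± 0.24 between L-cDC2 and M-cDC2 on the log2 scale. For Ikzf3 (Aiolos) that difference was 1.02. Pou2af1 and Ikzf3, the 2 called genes, reached 1 FPKM only in the L-cDC2 libraries and were tested only for that reason, so this count is a description as well. Mef2c rose by 0.71 in CLP-cDC2 over CDP-cDC2 (limma adjusted p = 0.0248) and Foxo1 fell by 0.99 there (adjusted p = 0.00217). The Mef2c call was lost without CLP1 or CLP2 or CDP3 (adjusted p from 0.0793 to 0.101). Ebf1, a factor that acts with Pax5, was chosen after its values were seen: it had 0.211, 0.278 and 0.257 FPKM in L-cDC2, against 0.0159, 0.0062 and 0.0081 FPKM in M-cDC2, and at most 0.0256 FPKM in CLP-cDC2 and CDP-cDC2. Of 11 genes of early B cell development 2 were tested and 0 were called in either lineage contrast by limma (median 0.46 and -0.16). Of 10 genes of marginal zone and follicular subsets 7 were tested, with 0 called between L-cDC2 and M-cDC2 (median 0.01) and 2 higher and 2 lower in CLP-cDC2 over CDP-cDC2 (median 0.05).

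**Figure D4:**
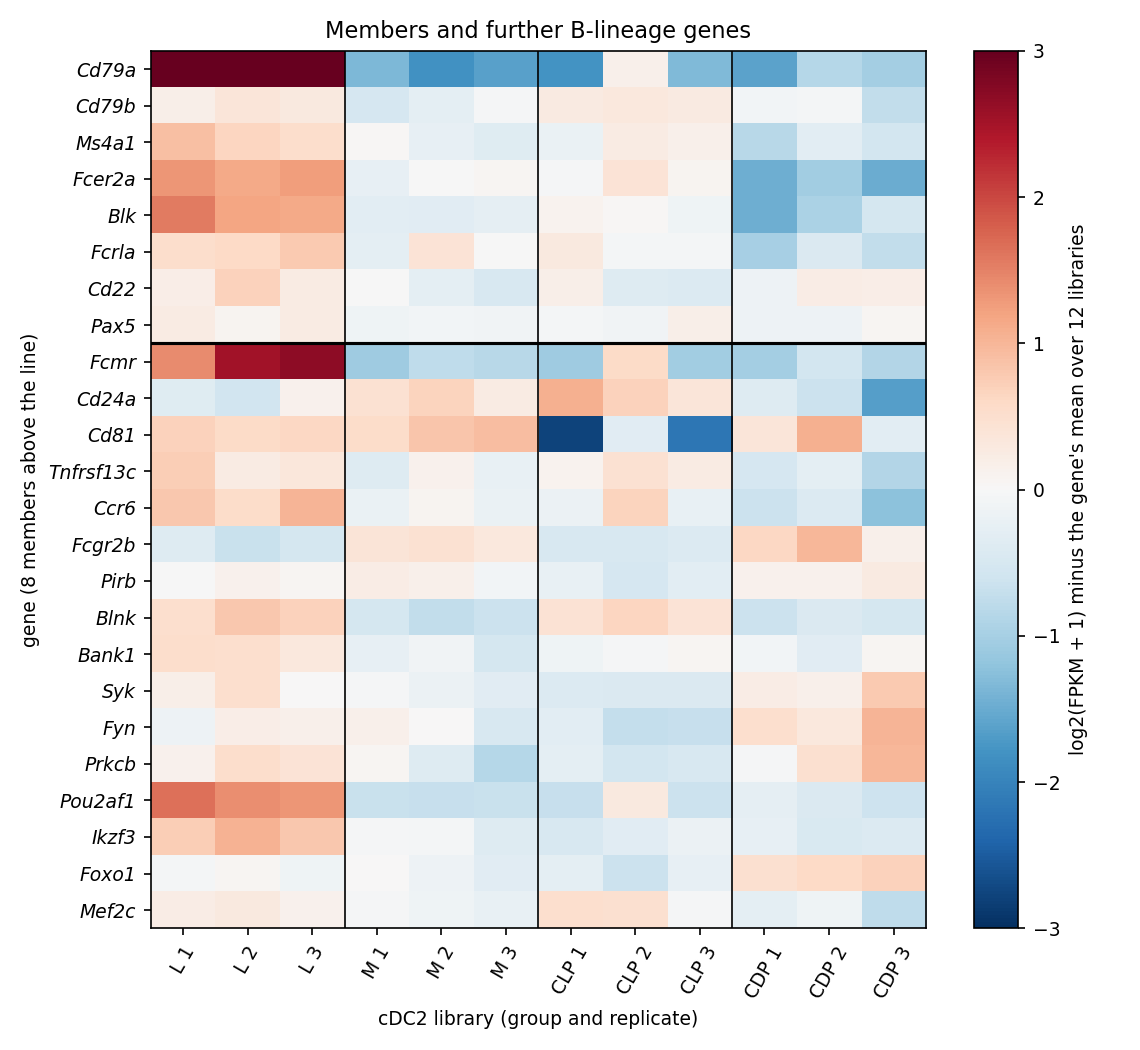
The 8 genes (above the line) and the called genes of the other B-lineage lists (below it) in the 12 libraries, as log2(FPKM + 1) minus the mean of that gene over the libraries, with colours limited to 3 in either direction. Cd79a, Fcmr and Pou2af1 share red columns in L-cDC2 and a paler field in CLP2, where Cd79a had 3.51 FPKM.

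Immunoglobulin transcripts were also highest in L-cDC2, with Igkc at 805 to 1370 FPKM in L-cDC2 against 8.30 to 27.3 FPKM in M-cDC2, and at 20.1 to 429 FPKM in CLP-cDC2 against 21.7 to 45.7 FPKM in CDP-cDC2. Ighm, the heavy chain of IgM, was high in all groups, at 662 to 821 FPKM in L-cDC2 and 377 to 393 FPKM in M-cDC2, and at 359 to 530 FPKM in CLP-cDC2 and 323 to 346 FPKM in CDP-cDC2.

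Markers of other cell types were summed in the same libraries. The 8 natural killer cell markers summed to 266 to 366 FPKM in L-cDC2, against 57.5 to 96.2 FPKM in M-cDC2, with 7 of 8 at 1 FPKM or more in L-cDC2 and 1 of 8 in M-cDC2. In the transfer groups they summed to 134 to 190 FPKM in CLP-cDC2, against 96.4 to 148 FPKM in CDP-cDC2. There 1 to 3 of 8 were at 1 FPKM or more in each group, and most of the sum was Klrd1. Klrd1 alone had 130 to 189 FPKM in CLP-cDC2 and 96.4 to 142 FPKM in CDP-cDC2. It had 76.1 to 98.4 FPKM in L-cDC2 and 56.3 to 95.4 FPKM in M-cDC2. The 7 T cell markers summed to 30.3 to 36.4 FPKM in L-cDC2, against 7.21 to 8.53 FPKM in M-cDC2, and to 12.1 to 22.1 FPKM in CLP-cDC2, against 8.70 to 10.6 FPKM in CDP-cDC2. Of the signalling chains of the T cell receptor among them, Cd247 had 1.36 to 2.06 FPKM in L-cDC2, against 0.231 to 0.335 FPKM in M-cDC2. Cd3g had 0.627 to 0.784 FPKM in L-cDC2, against 0 to 0.0814 FPKM in M-cDC2, and Cd3d had 0.623 to 0.983 FPKM in L-cDC2, against 0.246 to 0.660 FPKM in M-cDC2. Cd3e was at most 0.1496 FPKM in L-cDC2 and at 0 in all M-cDC2 libraries. The 7 plasma cell markers, led by Xbp1, summed to 78.8 to 92.7 FPKM in L-cDC2, against 58.4 to 63.2 FPKM in M-cDC2, and to 49.3 to 67.4 FPKM in CLP-cDC2, against 56.1 to 66.7 FPKM in CDP-cDC2. Xbp1 itself overlapped, at 60.4 to 60.7 FPKM in L-cDC2 and 56.3 to 62.4 FPKM in M-cDC2. Mzb1 had 10.4 to 12.2 FPKM in L-cDC2, against 0.0081 to 0.420 FPKM in M-cDC2, and Jchain 3.69 to 15.8 against 0.121 to 1.10 FPKM. Derl3 and Prdm1 were also wholly higher in L-cDC2, while Sdc1 and Tnfrsf17 overlapped. In CLP2, Mzb1 had 2.83 FPKM and Jchain 8.36 FPKM, the highest values of CLP-cDC2. The 10 markers of plasmacytoid dendritic cells, a cell type that shares transcripts with lymphoid cells, summed to 122 to 141 FPKM in L-cDC2, against 102 to 110 FPKM in M-cDC2, and to 163 to 299 FPKM in CLP-cDC2, against 79.5 to 138 FPKM in CDP-cDC2. One of these markers, Ly6d, had 33.2 to 45.9 FPKM in L-cDC2, against 0.0273 to 1.64 FPKM in M-cDC2, and 23.9 to 68.7 FPKM in CLP-cDC2, against 0.494 to 3.45 FPKM in CDP-cDC2. Without Ly6d the other 9 summed to 88.6 to 95.2 FPKM in L-cDC2, against 101 to 108 FPKM in M-cDC2, and to 127 to 230.2 FPKM in CLP-cDC2, against 79.0 to 135 FPKM in CDP-cDC2, so the first order turned round and the second pair overlapped. Siglech, which defines them, had 8.37, 3.38 and 3.65 FPKM in CLP-cDC2, against 1.67, 3.64 and 0.754 FPKM in CDP-cDC2. The natural killer, T cell and plasma cell sums were wholly higher in L-cDC2 than in M-cDC2, as each of the 8 genes was. The T cell sum was wholly higher in CLP-cDC2 than in CDP-cDC2, as Cd79b, Blk, Fcer2a, Fcrla and Ms4a1 were. Of its markers, Lck had 3.92 to 11.1 FPKM in CLP-cDC2, against 0.243 to 1.47 FPKM in CDP-cDC2. Cd247 was also wholly higher in CLP-cDC2 (0.262 to 0.396 against 0.181 to 0.236 FPKM). Cd3d was wholly lower in CLP-cDC2 (0.130 to 0.254 FPKM) than in CDP-cDC2 (0.405 to 0.618 FPKM). The other T cell markers overlapped between these groups. The 7 markers of cDC1, the other conventional dendritic cell type, summed to 126 to 151 FPKM in L-cDC2, against 235 to 259 FPKM in M-cDC2, and to 185 to 238 FPKM in CLP-cDC2, against 110 to 172 FPKM in CDP-cDC2. The 6 erythroid markers set single libraries apart, with 475 FPKM in L2 against 5.89 and 172 FPKM in L1 and L3, and with 457 FPKM in CLP2 against 20.2 and 51.6 FPKM in CLP1 and CLP3. They summed to 23.3 to 36.9 FPKM in M-cDC2 and to 1.16 to 121 FPKM in CDP-cDC2. Of the 12 cDC2 identity genes, 1 was called as higher and 1 as lower in L-cDC2 against M-cDC2 (limma, median difference 0.26), and 0 as higher and 9 as lower in CLP-cDC2 against CDP-cDC2 (median -0.83). Their sum was mostly H2-Ab1, and the other 11 summed to 574 to 626 FPKM in L-cDC2, against 517 to 645 FPKM in M-cDC2, and to 366 to 420.5 FPKM in CLP-cDC2, against 521 to 686 FPKM in CDP-cDC2. The part of these marker genes in the differences of the B-lineage genes was not tested.

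The genes most like the set were sought by Pearson correlation of log2(FPKM + 1) with the mean of the 7 tested genes over the 12 libraries, among 9647 genes. The first 10 were Cd2, Xcl1, Nkg7, Ets1, Sh2d2a, Klra7, Gzma, Bend5, Gimap5 and S1pr1, with r from 0.956 to 0.974. Cd2, a surface protein of T, natural killer and B cells, averaged 11.4 FPKM in L-cDC2 and 0.405 FPKM in M-cDC2, and 1.62 FPKM in CLP-cDC2 and 0.300 FPKM in CDP-cDC2. The 3 genes most like Cd79a alone were Gimap4, S1pr1 and Gzma (r from 0.990 to 0.998). Mzb1, from the plasma cell markers, was also close to Cd79a, at r = 0.9875. The 12 libraries share 4 group means, and a gene high in L-cDC2 alone scores high on this measure, so these values describe the groups and carry no p. In the gene ontology terms of the deposited annotation, 4 of the 8 genes (Cd79a, Cd79b, Ms4a1 and Blk) carry the term for B cell receptor signalling, held by 0.16% of 20628 annotated protein-coding genes, and 5 of the 8 are placed on the external side of the plasma membrane, against 1.925%.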

How the data were processed

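The libraries were made with SMART-Seq HT and Nextera XT kits, as the labels' protocols state. The authors deposited 1 table of FPKM. The tools listed per the submitters' processing notes, without role or order, are STAR 2.7.9a, featureCounts 2.0.1, DESeq2 1.20.0, cutadapt 3.7, Trim Galore 0.6.7 and Trimmomatic 0.39. Each library's FPKM times gene length in kilobases summed to 1000000. Every value above 0 (100%, tolerance 0.02) was a multiple of a step read as 0.01 read, and from 44.8 to 53.2% were whole reads, which gave the depths.

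Tests used log2(FPKM + 1), so the pseudocount was 1. Genes at 1 FPKM or more in 3 or more libraries entered limma 3.58.1 in R 4.3.3 (lmFit, eBayes with trend, two-sided), with version 1.17.8 of the data.table package for reading, 4 group means, 12 libraries and 8 residual degrees of freedom. p-values were adjusted by Benjamini-Hochberg over all 14538 genes of a contrast and called under 0.05. The procedure was tested on simulated data. Members and lists were chosen with earlier results of these data known. Named genes are the 8 members and, per list, up to 6 genes called in a lineage contrast, by smallest adjusted p. One listed gene is not reported here and is left out of its list's counts. Intervals are limma's, from the spread between libraries, and the floor of 3 reads covers counting error only. Alternatives were other pseudocounts, filters and scalings, array weights, a replicate block, no trend, single contrasts fitted alone, and libraries left out.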

Additional observations from a re-analysis of the deposited data

Results flagged for a closer look

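For 9 genes the difference between L-cDC2 and M-cDC2 departed from that between CLP-cDC2 and CDP-cDC2 in a test of the difference itself (limma adjusted p under 0.05, log2 scale). Cd79a led the list at 5.18 (adjusted p = 0.000315), with CLP-cDC2 minus CDP-cDC2 at 0.17, not called. Fcmr at 2.78, Pou2af1 at 2.03 and Ikzf3 at 0.97 reached 1 FPKM only in the L-cDC2 libraries (Fcmr also in CLP2) and were tested only because that group was high, so these values are descriptions. Prkcb at 1.67 (adjusted p = 0.0214), Fyn at 1.36 (adjusted p = 0.0229), Syk at 1.24 (adjusted p = 0.0171) and Foxo1 at 1.10 (adjusted p = 0.0166) were called as lower in CLP-cDC2 than in CDP-cDC2 and were not called between L-cDC2 and M-cDC2. Cd24a was the only one with a negative value, -2.34 (adjusted p = 0.00943): it was 21.6, 18.6 and 31.1 FPKM in L-cDC2 against 39.1, 45.4 and 34.0 FPKM in M-cDC2, and 60.7, 46.3 and 36.8 FPKM in CLP-cDC2 against 21.3, 17.8 and 8.30 FPKM in CDP-cDC2. Leaving out 1 library ended the call for Syk and Foxo1 (without L2, adjusted p = 0.0601 and 0.0623) and Fyn (without L2 or L3 or CLP2, adjusted p from 0.0568 to 0.0745). It also ended it for Prkcb (without L2 or L3, M2 or CLP2, adjusted p from 0.0526 to 0.071), and for Fcmr (without L2 or L3) and Ikzf3 (without M2 or M3, CLP1 or CLP2, or CDP3).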

How the results depend on the processing

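Over 35 pairs of gene and comparison, 788 values were recomputed, and 698 kept their direction and their side of the threshold. Cd79a, Fcer2a and Blk kept their calls in L-cDC2 over M-cDC2 and CLP-cDC2 over L-cDC2 under every alternative. Of the 7 tested genes, 5 were called between CLP-cDC2 and CDP-cDC2 as reported. That count was 2 with no filter, 3 under median-of-ratios scaling, 1 in the fit of those groups alone and 2 with array weights. It was 3 with the replicate block, 2 without CDP3 and M3, and 2 to 5 with each library left out. With a filter at 5 FPKM it was 3, where Ms4a1 and Fcrla were not tested and Fcer2a, Blk and Cd79b kept their calls. The count for the difference of the lineage contrasts (1) was 2 with the filter at 5 FPKM and with array weights, and 1 to 2 with each library left out; it could not be fitted from single contrasts. The count for CDP-cDC2 minus M-cDC2 (1) was 3 with array weights and 1 to 2 with each library left out. Those for L-cDC2 minus M-cDC2 (4) and CLP-cDC2 minus L-cDC2 (3) were 3 to 5 and 3 to 4 with each library left out, and the first was 6 with array weights. The causes of these changes were not tested.

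Signs turned only in differences that were not called. Cd79a in CLP-cDC2 minus CDP-cDC2 was -0.40 without CLP2 and -0.05 without CDP1 (-0.40 to 0.57 with each library left out). In the difference of the lineage contrasts, Fcrla was 0.0083 without M2 (-0.35 to 0.0083 with each library left out), and Fcer2a was 0.20 with a pseudocount of 5 and 0.0089 with array weights. Cd79b there was 0.0596 under quantile normalization, 0.18 with array weights, 0.33 without CDP3 and M3, and 0.04, 0.11 and 0.21 without L1, M3 or CDP3 (-0.13 to 0.21 with each library left out). Cd79b in CLP-cDC2 minus L-cDC2 was -0.0421 under quantile normalization, and -0.0501 and -0.0121 without L1 or CLP2 (-0.0501 to 0.045 with each library left out). Cd79b in CDP-cDC2 minus M-cDC2 was 0.0175 under quantile normalization, 0.21 with array weights, 0.33 without CDP3 and M3, and 0.11 and 0.21 without M3 or CDP3 (-0.13 to 0.21 with each library left out).

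Whether replicate numbers pair the samples cannot be settled from 3 libraries per group. Same-numbered deviations correlated at 0.128, -0.224 and -0.076 between L-cDC2 and M-cDC2, where other pairs of numbers gave -0.192 to 0.228. Between CLP-cDC2 and CDP-cDC2 same-numbered deviations correlated at -0.034, 0.282 and 0.085, and other pairs gave -0.29 to 0.222. With the replicate block the counts were 3 for L-cDC2 minus M-cDC2, 3 for CLP-cDC2 minus CDP-cDC2, 1 for the difference, 3 for CLP-cDC2 minus L-cDC2 and 1 for CDP-cDC2 minus M-cDC2. Depth limits the low values of Pax5 and Cd79a, which rest on few reads.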

Other observations

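Dntt, Rag1 and Rag2, from the list of 11 genes of early B cell development, were chosen after their values were seen. Other genes of that list went both ways. Vpreb1 averaged 0.523 FPKM in CLP-cDC2, against 0.985 FPKM in CDP-cDC2 and 1.43 FPKM in L-cDC2. Vpreb2 was at 0 in all CLP-cDC2 libraries, and Cd93 averaged 0.111 FPKM there, against 0.134 FPKM in CDP-cDC2. Myb averaged 1.06 FPKM in CLP-cDC2, against 0.371 FPKM in CDP-cDC2. Dntt, the template-independent DNA polymerase of antigen receptor rearrangement, had 12, 57 and 11 reads in CLP1, CLP2 and CLP3 (0.154, 0.545 and 0.113 FPKM), against 0, 1 and 0 reads in CDP-cDC2. It had 0 reads in all L-cDC2 and M-cDC2 libraries, where 3 reads would be 0.0178 to 0.0493 FPKM in L-cDC2 and 0.0258 to 0.0290 FPKM in M-cDC2. Rag1, a subunit of the recombinase, had 6, 8.5 and 1 reads in CLP-cDC2, against 0, 1 and 0 reads in CDP-cDC2, and 0 reads in all L-cDC2 and M-cDC2 libraries. Rag2, its partner, was seen mainly in 1 library, with 31.5 reads in CLP1 and at most 1 read in each of the other 11. Cd79a was lowest of its group in CLP1, at 8.5 reads.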
